A study of Mus musculus with 249 samples.

Results

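The HoxB and HoxC clusters are described here as they were detected by multiplex genome architecture mapping (GAM) in mouse embryonic stem cells. They were taken as the 40 kb windows of the mm9 assembly that lie whole within chr11:95120001-97200000 (HoxB region) and chr15:101800001-103400000 (HoxC region), which gave 52 and 40 windows, or 92 of the 68162 windows listed. The clusters themselves were the 5 windows of chr11:96040001-96240000 and the 4 windows of chr15:102720001-102880000. All 10 HoxB and 9 HoxC genes of the annotation used start in these windows, among them the 8 members Hoxb1, Hoxb4, Hoxb9, Hoxb13, Hoxc4, Hoxc8, Hoxc10 and Hoxc13.

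GAM sequences the DNA of thin slices through nuclei, called nuclear profiles, which a laser cuts out of cryosections and which are pooled in tubes before amplification. Windows found together in a tube more often than their own frequencies give are taken to lie close in the nucleus. The 249 libraries were all made from 46C cells, an embryonic stem cell line with a GFP reporter in the Sox1 gene, with 4 cell profiles per tube, of which 3 on average held a slice of the nucleus, since some slices through a cell miss it. They passed the quality control of the study, and they share the cell line and come from 11 experiments in 20 groups.

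The full collection held 54 libraries. The cresyl violet experiment held 16 stained and 10 unstained libraries. Libraries labelled unstained made up the experiments named for eosin (18), propidium iodide and freezing (20) and SYBR Gold (10). Freezing was varied in an early freezing test (12 frozen early, 11 frozen late) and after incubation (10 frozen, 11 unfrozen). Lysis was varied by proteinase K volume (5 with 1 µl, 6 with 2 µl). Amplification was varied by kit size (11 large, 12 small), by PCR cycles (4 libraries with 20, 5 with 23 and 3 with 25 cycles) and by reagent volumes (10 with protocol a, 11 with protocol b and 10 with protocol c). The labels name no batch apart from the experiment, and nothing in them says that tubes came from separate cultures, so p-values measure the spread between these tubes.

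Hox genes encode homeodomain transcription factors that give cells along the body axis their position. The genes of a cluster lie side by side on the same strand in the order in which they are used from head to tail, and in embryonic stem cells the clusters are largely silent and covered by Polycomb proteins. HoxB and HoxC arose by duplication of an ancestral cluster, so that several genes beside them are also paralogues, and both carry a gene for the microRNA miR-196a.

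In these data the posterior genes (Hoxb13, Hoxc13) lie at the left end of each cluster, towards lower coordinates, and the anterior genes (Hoxb1, Hoxc4) at the right end. To show how far the members are alike in sequence, 33 bases of each homeobox are given, which code for part of the third helix of the homeodomain, the helix that contacts DNA. Capitals mark bases that differ from Hoxb4, and coordinates are mm9, plus strand.
Hoxb1, chr11:96228295-96228327: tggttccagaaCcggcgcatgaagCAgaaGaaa
Hoxb4, chr11:96181511-96181543: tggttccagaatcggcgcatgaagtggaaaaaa
Hoxb9, chr11:96136114-96136146: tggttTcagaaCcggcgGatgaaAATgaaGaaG
Hoxb13, chr11:96057475-96057507: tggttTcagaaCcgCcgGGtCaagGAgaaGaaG
Hoxc4, chr15:102866235-102866267: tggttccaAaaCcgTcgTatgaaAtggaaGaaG
Hoxc8, chr15:102823143-102823175: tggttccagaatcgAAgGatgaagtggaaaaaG
Hoxc10, chr15:102801420-102801452: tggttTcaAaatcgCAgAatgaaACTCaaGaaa
Hoxc13, chr15:102757782-102757814: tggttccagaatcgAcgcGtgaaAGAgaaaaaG

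The stretches differed from that of Hoxb4 at 4 to 10 of the 33 bases. The paralogues Hoxb4 and Hoxc4 differed at 7 bases and Hoxb13 and Hoxc13 at 7 bases. Hoxb4 and Hoxc8 differed at only 4.

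The mature microRNAs of the clusters are given from RefSeq (GRCm38.p6 tables), with the seed (bases 2 to 8), which pairs with target messenger RNAs, in capitals.
miR-196a-5p (Mir196a-1 in HoxB and Mir196a-2 in HoxC): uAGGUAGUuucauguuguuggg
miR-10a-5p (Mir10a, HoxB): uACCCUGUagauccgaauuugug
miR-615-3p (Mir615, HoxC): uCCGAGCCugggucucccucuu

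Both copies of miR-196a-5p have the same 22 bases and the seed AGGUAGU, while miR-10a-5p and miR-615-3p have seeds of their own. In mm9, Mir196a-1 lies at chr11:96126478-96126579, between Gm53 and Hoxb9, and Mir196a-2 at chr15:102803772-102803881, between Hoxc10 and Hoxc9. They therefore fall in the windows that also hold Hoxb9 and Hoxc8, and their detection was that of those windows.

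The cluster windows were rich in CpG for their base composition. The ratio of observed to expected CpG was 0.327 on average over the HoxB cluster and 0.319 over the HoxC cluster, against 0.186 over the autosomal windows tested. It was highest in the window of Hoxb6 to Hoxb9 (0.416), at the 99.9th percentile of autosomal windows, and lowest in the Gm53 window between Hoxb13 and Hoxb9 (0.245). The 250 bases before the start of Hoxb4 and of Hoxc4, the promoters of this paralogue pair in the RefSeq table (GRCm38.p6), are given with each CpG in capitals.
Hoxb4, GRCm38.p6, chr11:96318017-96318266, plus strand: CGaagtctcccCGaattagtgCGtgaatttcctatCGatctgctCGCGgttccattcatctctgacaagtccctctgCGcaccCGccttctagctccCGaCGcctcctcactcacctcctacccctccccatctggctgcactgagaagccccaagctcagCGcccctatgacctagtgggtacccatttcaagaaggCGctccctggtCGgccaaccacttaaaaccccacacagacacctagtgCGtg
Hoxc4, GRCm38.p6, chr15:103034145-103034394, plus strand: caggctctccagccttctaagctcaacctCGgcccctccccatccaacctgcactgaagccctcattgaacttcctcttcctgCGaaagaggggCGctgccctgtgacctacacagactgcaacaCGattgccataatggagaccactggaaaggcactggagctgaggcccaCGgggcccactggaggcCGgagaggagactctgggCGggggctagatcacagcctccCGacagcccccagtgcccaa

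The Hoxb4 stretch held 14 CpG and the Hoxc4 stretch 8, against a median of 6 over the 27025 genes with an entry in the table. The count for Hoxb4 stood at the 71.5th percentile of these genes and that for Hoxc4 at the 57.9th.

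The first question was how often each Hox gene was seen at all. Every window of both regions was positive in more libraries than the 48.3 that the coverage of the libraries gives for an autosomal window. Of all 59639 autosomal windows tested, 55.5% lay above this number. The coverage (percent of autosomal windows positive in a library) was 19.4 ± 8.16 (SD, n = 249), from 3.23 to 48.2. In the HoxB region the windows were positive in 53 to 83 libraries with a median of 65.5, and in the HoxC region in 51 to 75 with a median of 59.5.

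Among the members, Hoxb13 was positive in 66 libraries, Hoxb9 in 63, Hoxb4 in 59 and Hoxb1 in 62. In HoxC, the Hoxc13 window was positive in 69 libraries, that of Hoxc10 in 56, that of Hoxc8 in 63 and that of Hoxc4 in 61. The members thus lay between 22.5% and 27.7% of the libraries. Hoxc13, a posterior gene active in hair follicles, stood highest and Hoxc10, a lumbar and hindlimb gene, stood lowest, although their windows are adjacent. Each gene is given here by the window of its start. Hoxc10 reaches into the next window, that of Hoxc8 (63 libraries), where its homeobox stretch lies.

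The other genes of the clusters share these windows. Hoxb6, Hoxb7 and Hoxb8 start in the Hoxb9 window, Hoxb3, Hoxb5 and Mir10a in the Hoxb4 window, and Hoxb2 in the Hoxb1 window. In HoxC, Hoxc11 and Hoxc12 start in the Hoxc10 window, Hoxc6 and Hoxc9 in the Hoxc8 window, and Hoxc5 and Mir615 in the Hoxc4 window. Genes of the same window cannot be told apart at this resolution.

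By an exact Poisson-binomial test with Benjamini-Hochberg adjustment over 59639 autosomal windows, 22 of 52 HoxB windows and 5 of 40 HoxC windows were called more often positive, and none of either region less often. Of all windows tested, 4.39% were called more often and 1.92% less often. Of the clusters themselves, 0 of the 5 HoxB windows were called by this test (4 at an unadjusted p under 0.05, smallest adjusted p = 0.0678) and 1 of the 4 HoxC windows, that of Hoxc13 (adjusted p = 0.0232). All 22 called windows of the HoxB region lay in its flanks. The window most often positive was chr11:95840001-95880000, which holds the start of Igf2bp1, an mRNA-binding protein gene (83 libraries, adjusted p = 1.04e-05), and the least often positive was chr11:95480001-95520000 (53 libraries).

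The paralogous neighbours of the clusters were detected as follows, and differences between paralogues were not tested. Cbx1, the gene for heterochromatin protein HP1 beta, was positive in 77 libraries (adjusted p = 0.000533), and Nfe2l1 and Copz2, which share a window, also in 77. In the HoxC region the window of Cbx5, the HP1 alpha gene, was positive in 75 libraries and was the highest there (adjusted p = 0.00194), while Nfe2 and Copz1 were positive in 61. Calcoco1, on the posterior side of HoxC, had the lowest count of its region with 51 libraries, and Calcoco2, on the posterior side of HoxB, had 61. Sp2 and Sp6 were positive in 60 libraries, Sp1 in 62 and Sp7 in 58.

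Both regions are rich in G and C, and chromosome 11 as a whole was detected often. The mean GC content was 48.5% over the HoxB cluster, 47.5% over the HoxC cluster and 41.9% over autosomal windows, and 78.3% of chromosome 11 windows but 48% of chromosome 15 windows lay above the expected number. When each window was set against windows of like GC content (10 classes), 11 of 52 HoxB windows, 1 of 40 HoxC windows and 0 cluster windows were called, against 1.52% of all windows, and 49 of 52 and 36 of 40 windows still lay above their expected number. The Hoxc13 call was thus lost (smallest adjusted p of the HoxC cluster 0.165). With the rate of the own chromosome, 10 HoxB and 5 HoxC windows were called (4.11% of all windows), and with the rate over windows positive at least once, 17 HoxB windows and 1 HoxC window (2.41%), again without Hoxc13 (adjusted p = 0.0598).

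**Figure D1:**
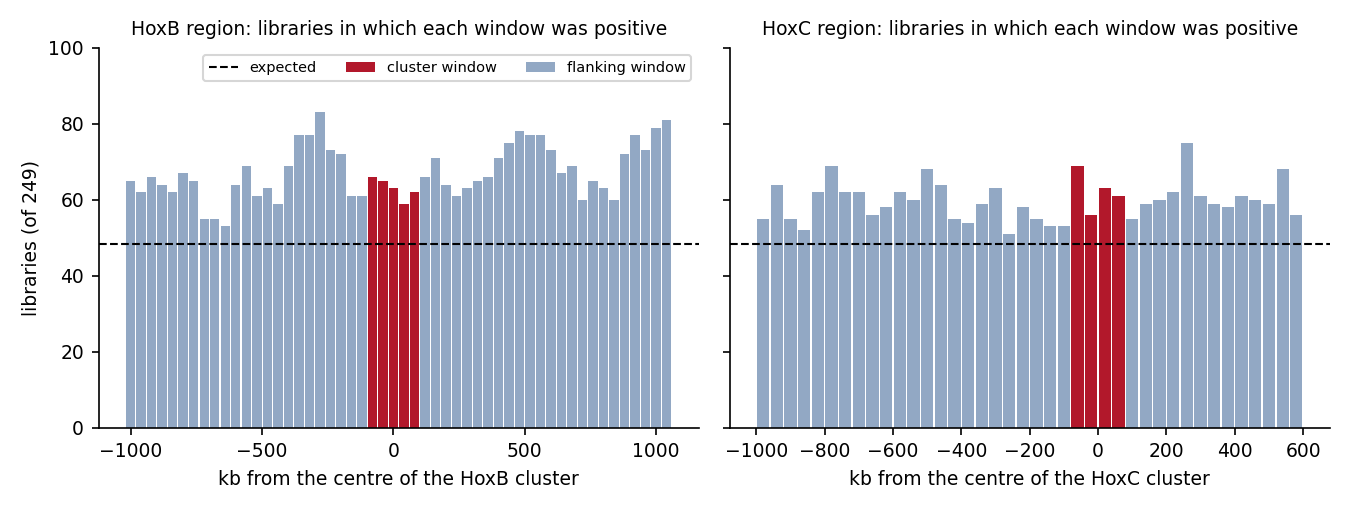
Number of libraries (of 249) in which each 40 kb window was positive, by distance in kb from the centre of the HoxB cluster (left) and the HoxC cluster (right), with cluster windows in red, flanking windows in blue and the expected 48.3 libraries as a dashed line. The 5 HoxB cluster windows (59 to 66 libraries) lie within the range of their region (53 to 83), and the Hoxc13 window (69) is the highest of the HoxC cluster.

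The second question was how often a cluster was captured as a whole. At least 1 window of the HoxB cluster was positive in 105 libraries, and all 5 windows were positive in 21 of these (20.0%, 95% Wilson interval 13.5 to 28.6, which covers counting error only). For the HoxC cluster, 98 libraries had at least 1 window and 31 of these had all 4 (31.6%, interval 23.3 to 41.4).

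From 0 to 5 positive HoxB windows were found in 144, 27, 15, 15, 27 and 21 libraries. For HoxC, 0 to 4 windows were found in 151, 30, 16, 21 and 31 libraries. Most libraries thus held no window of a cluster. Among the others, 2 or 3 windows were each found in fewer libraries (15 and 15 for HoxB, 16 and 21 for HoxC) than 1 window or the whole cluster. Whether other runs of windows have this shape was not tested.

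HoxC was whole more often than most stretches of its chromosome. Its share stood at the 97.1st percentile of 2502 runs of 4 windows on chromosome 15, whose median was 21.2%, and that of HoxB at the 62.6th percentile of 2934 runs of 5 windows on chromosome 11 (median 18.3%). The HoxC value leaned on 1 experiment: among the 20 libraries named for propidium iodide and freezing, 9 had any HoxC window and all 9 had the whole cluster, and without them 22 of 89 libraries (24.7%) had it whole. In the same experiment 3 of 9 libraries with HoxB had it whole.

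The third question was how closely each cluster was linked to itself and to its neighbours. Linkage was measured as D', the co-segregation of a pair of windows minus the product of their frequencies, divided by the largest size this can take. It is given against the mean of all pairs of the same distance on the same chromosome (excess D'), or as a z-score among them, with a standard error from leaving out each library in turn (jackknife). By D', both clusters had higher values with the flank on their anterior side than with that on their posterior side, by over 2 errors for HoxC and under 2 for HoxB. For HoxC the difference lay mostly in the windows further out. It was smaller with another measure, and smaller or larger depending on which experiment was left out.

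Within HoxB the 10 pairs had a mean D' of 0.601 ± 0.0404 (jackknife SE, 249 libraries), 0.0194 ± 0.0399 above pairs of equal distance, a difference smaller than its error. The outer genes Hoxb13 and Hoxb1, 160 kb apart, were found together in 46 libraries against 16.4 expected (D' 0.649 ± 0.0711), and this pair had a z-score of 1.64. Neighbouring windows had z-scores from -0.89 to 0.32. Gm53 with Hoxb13 had a D' of 0.602 (z -0.46) and Gm53 with the Hoxb9 window 0.570 (z -0.89), and the other neighbouring pairs had z-scores of 0.32 and -0.27. In z-score, which is scaled to pairs of the same distance, all 4 lay below the pair of the distant ends, but in D' the Hoxb9 and Hoxb4 windows (0.660) did not. With the Gm53 window, which holds no Hox gene, left out of the cluster, the mean z-score within HoxB was 0.74 in place of 0.21. The value of 0.21 had a jackknife SE of 0.49, and no error was computed for that of 0.74.

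Within HoxC the 6 pairs had a mean D' of 0.663 ± 0.0429, 0.0839 ± 0.0415 above pairs of equal distance, and all 6 had a z-score above 0. The closest pair was Hoxc13 with the window of Hoxc10, Hoxc11 and Hoxc12, found together in 47 libraries against 15.5 expected (D' 0.778 ± 0.0661, z 1.94). Hoxc8 with Hoxc4 had the lowest z-score, with 44 libraries (D' 0.627 ± 0.0719, z 0.07). The difference between these pairs was not tested. The excess of HoxC stood at the 93.9th percentile of runs of 4 windows on its chromosome and that of HoxB at the 65.3rd of runs of 5 windows. Without the experiment named for propidium iodide and freezing, the mean z-score within HoxC was 0.42 in place of 1.00.

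**Figure D2:**
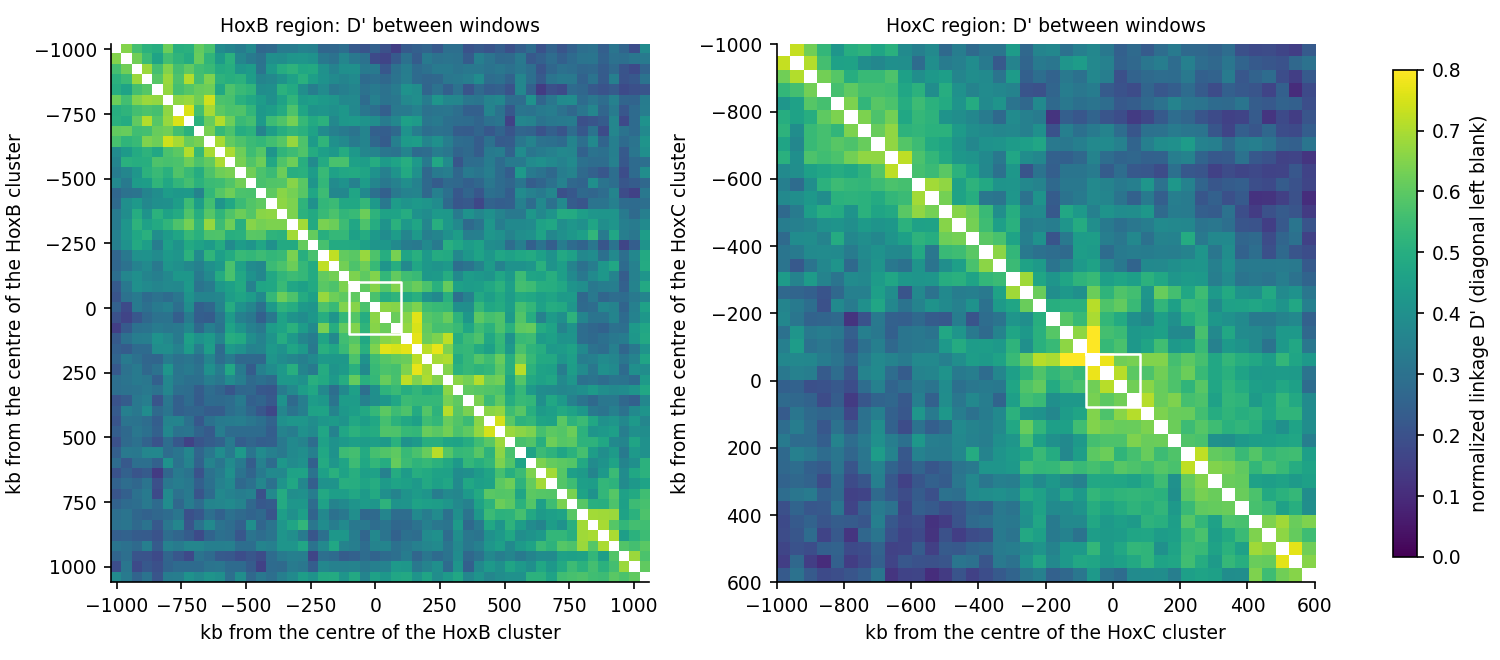
Normalized linkage D' (colour, 0 to 0.8) between all pairs of 40 kb windows of the HoxB region (left) and the HoxC region (right), by distance in kb from the centre of each cluster, which is framed in white. The mean D' of the HoxC cluster is 0.376 with its left flank and 0.516 with its right flank, while the mean D' of the HoxB cluster is 0.392 with its left flank and 0.457 with its right flank.

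On the anterior side, HoxB and its flank, which begins with 2 windows with no such gene and the long gene Skap1, a T cell adaptor gene, had a mean D' of 0.457 over 120 pairs, an excess of 0.0617 ± 0.0322, and 92 of 120 pairs had a z-score above 0. On the posterior side, towards Ttll6, Calcoco2 and Igf2bp1, the excess was -0.00702 ± 0.0329, with 53 of 115 pairs above 0. For HoxC, the anterior flank with Smug1, Cbx5, Nfe2 and Copz1 had an excess of 0.0790 ± 0.0342 (49 of 52 pairs above 0) and the posterior flank with Calcoco1, Atp5g2 and the keratin genes -0.0187 ± 0.0351 (36 of 92).

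The difference between the sides (anterior minus posterior) was 0.0687 ± 0.0378 for HoxB and 0.0977 ± 0.0399 for HoxC. It exceeded its error by a factor of over 2 for HoxC and of under 2 for HoxB. Among stretches of the same shape along the chromosome, it stood at the 89.3rd percentile for HoxB (2929 stretches of chromosome 11) and at the 96.5th for HoxC (2485 stretches of chromosome 15). The right flank of HoxC is the shorter, with 13 windows against 23, since the cluster lies close to the end of chromosome 15. Pairs within a flank, without the cluster, had an excess of 0.0349 ± 0.0321 (anterior) and -0.0299 ± 0.0273 (posterior) for HoxC. For HoxB these values were 0.0217 ± 0.0259 and 0.0378 ± 0.0255. Whether the difference between the sides belongs to the clusters or to their flanks was not tested.

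Nearly all pairs of the regions were called by Fisher's exact test, 1323 of 1326 for HoxB and 768 of 780 for HoxC, against 84.4% of pairs up to 4 Mb apart on chromosome 11 and 82.8% on chromosome 15. Of the pairs within and beside the clusters, 91 of 92 (HoxC with its posterior flank) and all others were called. Of pairs of equal distance 98.9% to 100% were called, so these counts say little about the clusters.

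The direction of these excess values depended on the measure. D' was replaced by the log2 ratio of observed to expected co-segregation, which cannot exceed a ceiling set by the more frequent window. The mean z-score within HoxC then became -0.90 and that of HoxC with its anterior flank -0.46. The part of this ceiling in the change was not tested. The anterior minus posterior difference kept its sign but was smaller, with a mean z difference of 0.41 in place of 0.77 for HoxB and of 0.65 in place of 1.05 for HoxC. No error was computed for this ratio. The difference also stayed above 0 when each experiment was left out, between 0.59 and 1.07 for HoxB and between 0.65 and 1.32 for HoxC, the lowest of which is under 2 of the jackknife errors of the mean z difference over all libraries (0.43).

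**Figure D3:**
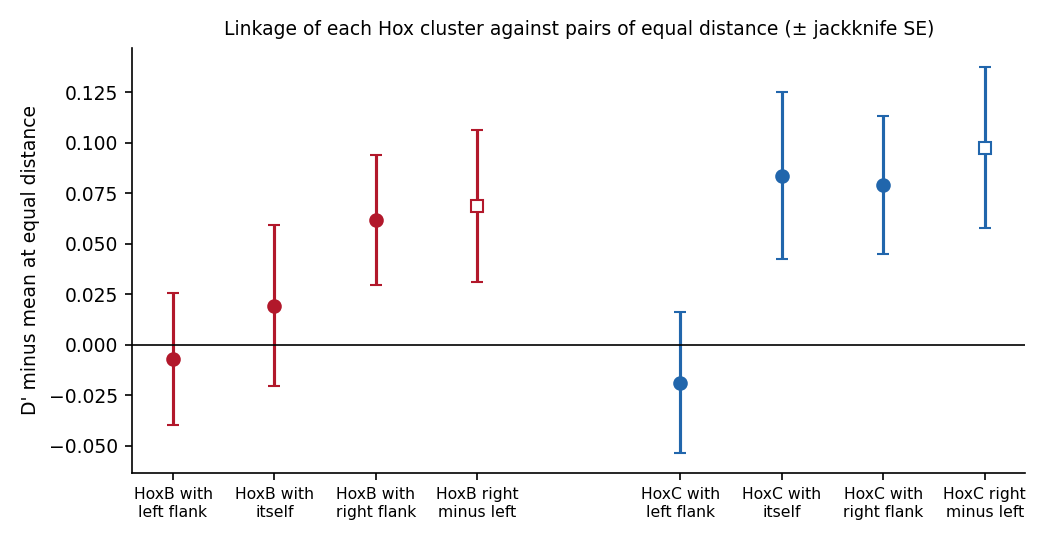
Excess D' (D' minus the chromosome's mean at equal distance) of each cluster with its left (posterior) flank, with itself and with its right (anterior) flank as filled circles, and the right minus left difference as open squares, HoxB in red and HoxC in blue. Bars are jackknife standard errors over 249 libraries, and the left flanks lie near 0 for both clusters (-0.00702 and -0.0187).

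The flanks were not uniform, and for HoxC the near windows stood apart from the far ones. This split was made after the values were seen, and it is a description. With the 5 nearest posterior windows, chr15:102520001-102720000, which hold Calcoco1 and 4 windows with no coding or microRNA gene, HoxC had an excess D' of 0.0888 ± 0.0375, and with the 18 windows beyond them -0.0486 ± 0.0393. The Hoxc13 window was found with the adjacent window, which holds no such gene, in 47 libraries, of 69 and 53 in which each was positive (D' 0.843, z 2.75), and with the next in 46 (D' 0.817, z 3.16). With Calcoco1 itself, 200 kb away, it shared 37 libraries (D' 0.620, z 1.59).

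On the anterior side, the 5 windows nearest to HoxC, up to Cbx5, had an excess of 0.113 ± 0.0348, and the 8 windows beyond, with Nfe2, Copz1 and Itga5, 0.0579 ± 0.0400. By D', HoxC and the 5 windows on either side thus held the higher values, with lower ones further out. With the log2 ratio the near values turned, to a mean z-score of -0.38 on the posterior side and -0.42 on the anterior side, where the far windows had -0.48. The near values leaned on single experiments: without that named for propidium iodide and freezing, the mean z-score was 0.54 in place of 1.00 on the posterior side and 0.78 in place of 1.25 on the anterior side, where it was 0.80 without the full collection. For HoxB the near and far windows differed less. On the anterior side the excess was 0.0795 ± 0.0358 near and 0.0570 ± 0.0345 far, and on the posterior side 0.0246 ± 0.0337 near and -0.0158 ± 0.0369 far.

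Pairs at larger distance were named by z-score for each cluster. By a rule that took the 3 highest z-scores among pairs of 1 cluster window and 1 outside window 200 kb to 4 Mb apart, Hoxb1 and the Copz2 window chr11:96720001-96760000, 520 kb apart, came first for HoxB, with 45 libraries against 18.2 expected (D' 0.612 ± 0.0749, z 2.47). Hoxb1 with the Nfe2l1 and Copz2 window followed (D' 0.603 ± 0.0766, z 2.21), and then Hoxb4 with the same window (D' 0.583 ± 0.0798, z 2.14). The mean D' of pairs 520 kb apart was 0.394 with an SD of 0.0885.

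For HoxC, the highest was the Hoxc13 window with the last, shortened window of the chromosome, chr15:103480001-103494974 (17 libraries of 69 and 25, D' 0.557 ± 0.129, z 2.28). Next came the Hoxc13 window with the keratin genes Krt71 and Krt74 at chr15:101560001-101600000 (26 libraries against 11.6 expected, z 1.97), and the Hoxc10 window with the same chromosome end (D' 0.536 ± 0.124, z 1.96). That end window was positive in 25 libraries, the fewest admitted to linkage. The 3 lowest HoxB pairs joined Hoxb13 or Hoxb4 to the windows that start at chr11:92600001, chr11:92680001 and chr11:92880001, which hold no coding or microRNA gene, with 6 to 8 libraries against 9.48 to 11.7 expected and z-scores from -6.75 to -5.70. D' divides by a smaller maximum when it is negative, which widens this tail, and none of the 3 differed from 0 by Fisher's exact test (adjusted p from 0.102 to 0.267). The lowest HoxC pairs had z-scores from -2.11 to -1.63 and joined HoxC windows to Csad and Zfp740 and to Krt75.

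The insulation score, the mean D' across each window edge in a square of 400 kb, was used to look for edges of these neighbourhoods. Low values mark places across which linkage is weak. The nearest local minima to HoxC were one 200 kb to the left of the cluster, at chr15:102520001 between Atp5g2 and Calcoco1, and another 200 kb to the right, at chr15:103080001 between Cbx5 and Copz1. The left one was deep, with a score of 0.354 against a chromosome mean of 0.419 and a prominence of 4.21 SD, and it stood at the 7.90th percentile of chromosome 15. The right one was shallow (0.446, prominence 0.825 SD) and, at the 71.8th percentile, above the chromosome mean.

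HoxB had a shallow minimum 40 kb to its left, at chr11:96000001 in Ttll6 beside Calcoco2 (score 0.437, prominence 1.28 SD, against a chromosome mean of 0.431, 53.1st percentile), which moved to -160 kb with squares of 200 and 800 kb, and the next to the right was 960 kb away, at the region's end beside Gpr179 and Mrpl45. No minimum fell inside either cluster. The HoxC left minimum stayed within 200 to 400 kb of the cluster when each experiment was left out, whereas that of HoxB ranged from -2200 to 0 kb, the former without the experiment named for propidium iodide and freezing.

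**Figure D4:**
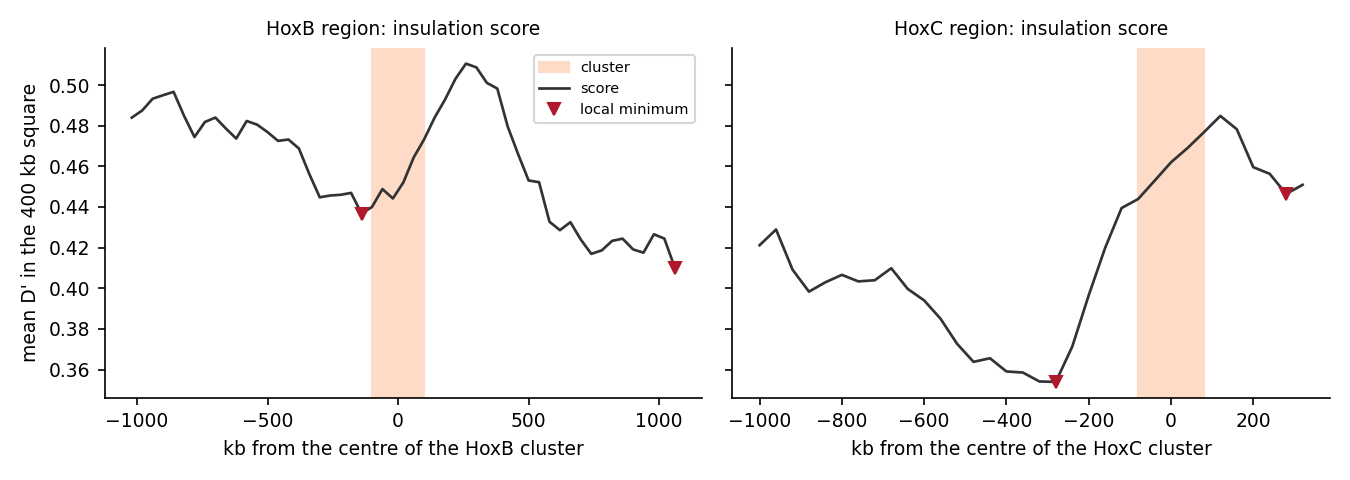
Insulation score (mean D' in a square of 400 kb) at each window edge, by distance in kb from the centre of the HoxB cluster (left) and the HoxC cluster (right), with the cluster shaded and local minima as triangles. The score rises across both clusters from left to right, and the deepest minimum (0.354) lies on the Calcoco1 side of HoxC.

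The fourth question was whether the HoxB and HoxC clusters, on different chromosomes, were found in the same tubes, each of which pools several nuclear profiles. Co-detection of the clusters was not called and stood within the range of other stretches of these chromosomes. Both clusters had a positive window in 45 libraries against 41.3 expected, HoxB alone in 60, HoxC alone in 53 and neither in 91. By Fisher's exact test over all pairs of blocks of the same size, the p was 0.360 and the adjusted p 0.641 (0.291% of block pairs were called above 0, and 16.8% at an unadjusted p under 0.05), and the D' of 0.0648 stood at the 42.3rd percentile of block pairs.

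The mean D' of the 20 window pairs was 0.0685 ± 0.0591, against 0.0321 with an SD of 0.0811 over all stretches of the same shape (64.3rd percentile), and it was 0.00255 without the full collection. No pair was called by Fisher's exact test (0 of 20 with 1 at an unadjusted p under 0.05), and 0.00203% of the 7437582 pairs of both chromosomes were called above 0. At an unadjusted p under 0.05, 11.0% of all pairs lay above 0, and 1 of 20 is below that share. The lowest p was that of Hoxb1 with the Hoxc8 window, in 22 libraries against 15.7 expected (D' 0.136, adjusted p = 0.427).

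No paralogue pair was called. Hoxb13 and Hoxc13 shared 24 libraries against 18.3 expected (D' 0.120 ± 0.0699, adjusted p = 0.50), Hoxb4 and Hoxc4 shared 15 against 14.5 (D' 0.0123 ± 0.0709), and the miR-196a windows shared 20 against 15.9 (D' 0.0863 ± 0.0729). Among the neighbours, Copz2 with Copz1, and Nfe2l1 with Nfe2 in the same windows, had a D' of 0.0982 ± 0.0783, Sp2 with Sp1 0.0679 ± 0.0685, Cbx1 with Cbx5 0.0542 ± 0.0665, Calcoco2 with Calcoco1 0.0131 ± 0.0889 and Sp6 with Sp7 0.000547 ± 0.160. None of these values exceeded its error by a factor of 2.

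Among the 2080 pairs of both whole regions, 0 were called and 200 lay above 0 at an unadjusted p under 0.05 (9.62%, against 11.0% of all pairs). The 3 of lowest p were the Fam117a and Myst2 window with that of Sp1 (27 libraries against 15.4 expected, D' 0.248 ± 0.0858, adjusted p = 0.126), Hoxb1 with the Nckap1l and Pde1b window (28 against 16.9, D' 0.246 ± 0.0758, adjusted p = 0.155) and Spop with Atf7 (25 against 14.5, D' 0.265 ± 0.0831, adjusted p = 0.155).

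**Figure D5:**
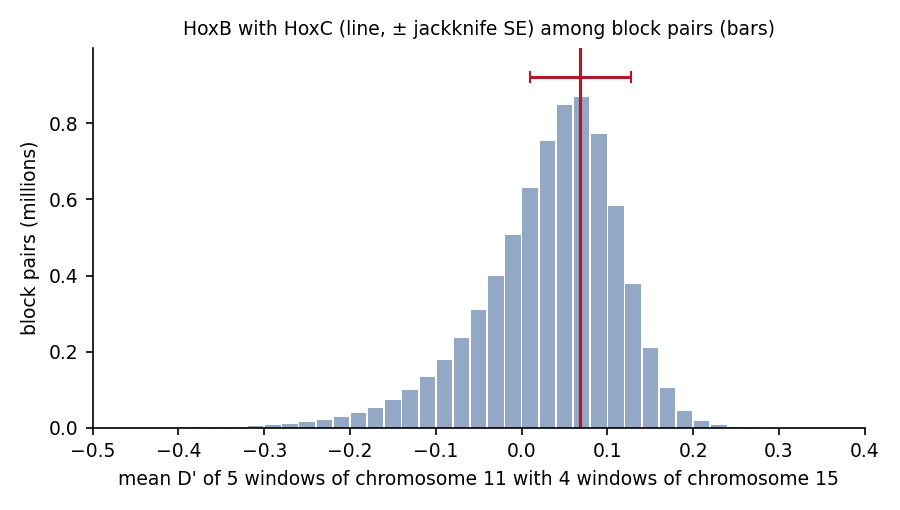
Distribution of the mean D' of 5 adjacent windows of chromosome 11 with 4 adjacent windows of chromosome 15 (horizontal axis from -0.5 to 0.4, bars give the number of block pairs), with HoxB and HoxC as a red line and its jackknife standard error as a red bar. HoxB with HoxC (0.0685 ± 0.0591) lies in the middle of the distribution (64.3rd percentile).

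Set against the other Hox clusters, HoxB had a mean D' of 0.120 ± 0.0547 with HoxD on chromosome 2 (92.8th percentile of stretches of the same shape) and -0.191 ± 0.122 with HoxA on chromosome 6 (2.25th percentile). HoxC had 0.0182 ± 0.0756 with HoxA and -0.0103 ± 0.0891 with HoxD. As blocks, HoxB and HoxA had a positive window together in 37 libraries against 36.7 expected, HoxB and HoxD in 42 against 35.8, HoxC and HoxA in 38 against 34.2, and HoxC and HoxD in 33 against 33.5. These block counts were not tested.

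The windows of other chromosomes whose calls were most like those of Hoxb4 were chr4:27400001-27440000 (24 shared libraries of 59 and 40, phi 0.374) and the Arid5a window chr1:36360001-36400000 (phi 0.319), over 249 libraries and 56068 windows with a mean phi of 0.0453 and an SD of 0.0641. For Hoxc8 they were chr16:27640001-27680000 (phi 0.365) and chr5:109400001-109440000 (phi 0.309). These windows were picked as the highest of all, and the part of library coverage in their values was not tested.

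The last question was whether detection of the clusters differed between experiments and protocols. The HoxB cluster had a positive window in 18.2% (2 of 11, proteinase K volumes) to 60.9% (14 of 23, kit sizes) of the libraries of an experiment, and the HoxC cluster in 25.9% (14 of 54, full collection) to 56.5% (13 of 23, early freezing). By a chi-square statistic with a permutation null over libraries, 0 of 92 windows were called (10 of 52 HoxB and 3 of 40 HoxC windows at an unadjusted p under 0.05, smallest adjusted p = 0.394), as were 0% of the 59030 windows tested, of which 9.29% had an unadjusted p under 0.05. A score test with the coverage of each library as an offset also called 0. Of the 92 windows, 1 then had an unadjusted p under 0.05, against 13 without the offset and 4 without the full collection. The share of all windows at this p was not computed with the offset or without the full collection. These counts can therefore not be read as a trait of the Hox windows.

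Within experiments, 11 contrasts of protocols were made with Fisher's exact test, and 0 of 746 tests of member windows were called (50 at an unadjusted p under 0.05, or 6.70%, against 2.63% of all 403462 tests, of which 0% were called). Proteinase K volumes and PCR cycles had arms of 3 to 6 libraries. So few libraries leave the test few possible p-values, and a call after adjustment was hardly possible there. The most were in the early freezing test, where 26 of 52 HoxB windows and 0 of 40 HoxC windows had an unadjusted p under 0.05, all 26 higher when frozen early, against 4.84% of all windows. Adjacent windows are read from the same slices, so these 26 are not independent of each other.

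The libraries show this at the level of the region. When frozen early (n = 12), the share of HoxB region windows positive in a library was lowest at 0%, with a median of 60.6% and a highest value of 88.5%, and when frozen late (n = 11) it was 0%, 5.77% and 55.8%. The arms overlapped. For the HoxC region the same values were 0%, 30.0% and 77.5% early and 0%, 17.5% and 67.5% late. The HoxB cluster had a positive window in 9 of 12 and 2 of 11 libraries, and the Hoxb1 window itself in 6 and 0 (p = 0.0137 by Fisher's exact test, adjusted p = 0.779).

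The early libraries also had the higher coverage, 29.9% against 17.7% on average, and the part of this in the HoxB difference was not tested beyond the following subtraction. After each library's coverage was taken off, the HoxB region share was 23.9 ± 7.88 percentage points (SE) early and -4.90 ± 5.93 late, and the HoxC share 4.43 ± 9.71 and 5.29 ± 6.46. Between kits, 14 of 52 HoxB and 0 of 40 HoxC windows had an unadjusted p under 0.05, all lower with the large kit, against 3.34% of all windows, and the small kit also gave the higher coverage (24.3% against 15.3%). Whether HoxB and HoxC differed in these contrasts was not tested.

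The other contrasts gave few such windows. There were 2 of 45 HoxB windows after incubation, both lower when frozen (1.74% of all windows), 3 member windows between protocols a and b (1.61%), 3 between protocols b and c (2.08%) and 2 between 20 and 23 PCR cycles (4.82%). By Fisher's exact test there were 0 of 81 between protocols a and c (0.743%) and 0 of 92 with cresyl violet (2.65%). Fewer members could be tested between proteinase K volumes (0 of 25, against 0.569%). The same held between 20 and 25 (0 of 35, against 6.85%) and between 23 and 25 PCR cycles (0 of 13, against 1.69%). With arms this small, these counts of 0 say little. Adjusted p-values in all these contrasts were 0.798 or above.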

How the data were processed

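The deposited table holds 0 and 1 calls, 1 column per library and 1 row per 40 kb window, another kind of value than counts. According to the study's methods and processing notes, the authors aligned reads to mm9 with Bowtie2 (version 2.1), removed duplicates, and called a window positive in GAMtools at a fixed read threshold; only libraries that passed their quality control are listed. Read counts are not in the table, so depth is unknown, and a 0 may stand for absence or for too few reads. All 249 columns were matched to samples by library name (0 columns unused), and groups were taken from titles. Window coordinates end at the chromosome lengths of the mm9 genome used, and genes were taken from GENCODE vM1.

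Detection was tested with the exact Poisson-binomial test over windows positive at least once. Linkage used windows positive in at least 25 libraries, up to 4 Mb apart in cis, with two-sided Fisher's exact tests. Variation across experiments used 100000 permutation draws per number of positive libraries, and protocol contrasts left out windows with fewer than 3 positive libraries. Benjamini-Hochberg adjustment ran over all autosomal windows tested for detection and for variation across experiments, and over the windows of each protocol contrast separately. For linkage it ran over all cis pairs tested on both chromosomes together, and over all trans pairs of windows or of blocks. The threshold was 0.05. Minima of the insulation score had a prominence of at least 0.5 SD. Scripts ran in Python 3.11.15 with numpy 2.4.6 and scipy 1.17.1 and were tested on simulated data. Named were the members, the other Hox and microRNA genes, paralogous neighbours, the extreme windows and pairs, nearest minima and the most alike windows. The regions, gene lists and naming rule were chosen with earlier results of these data known. Alternatives varied the expected rate, the libraries, the measure, the square and the test.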

Additional observations from a re-analysis of the deposited data

How the results depend on the processing

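The calls of windows across experiments, between protocols and between chromosomes stayed at 0 under every alternative run for them. In protocol contrasts with arms of 3 to 6 libraries a call was hardly possible, so 0 calls there show no stability. The adjusted p of HoxB with HoxC as blocks ranged from 0.375 to 0.993 (0.508 to 0.971 when each experiment was left out), and the mean D' of that pair from 0.00255 to 0.0946 when each experiment was left out. Calls of frequent detection depended on the expected rate. With rates of windows of like GC content, 11 HoxB windows, 1 HoxC window and 0 HoxC cluster windows were called (1.52% of all windows); with rates of the own chromosome, 10 HoxB windows (4.11%); and with rates over windows positive at least once, an alternative added after seeing the data, 1 of 40 HoxC windows and 0 HoxC cluster windows (2.41%), so that the HoxC count lay near the share of all windows. With the log2 ratio of observed to expected co-segregation, mean z-scores became -0.50 within HoxB, -0.71 and -0.30 for HoxB with its left and right flank, -0.90 within HoxC, and -1.11 and -0.46 for HoxC with its left and right flank, and, for the 5 nearest windows, -0.036 (HoxB right), -0.38 (HoxC left) and -0.42 (HoxC right). Without the Gm53 window the mean z within HoxB was 0.74. When each experiment was left out, the mean z ranged from -0.18 to 0.47 within HoxB, from -0.33 to 0.13 and from 0.38 to 0.76 for HoxB with its left and right flank, from 0.42 to 1.37 within HoxC, and from -0.45 to 0.02 and from 0.55 to 1.00 for HoxC with its left and right flank; the right minus left difference ranged from 0.59 to 1.07 for HoxB and from 0.65 to 1.32 for HoxC. The share of libraries with the whole cluster ranged from 15.4% to 22.7% for HoxB and from 24.7% to 36.9% for HoxC over such fits, also added after seeing the data. The minima of the insulation score moved with the square. With 200 kb they lay -160 kb and 400 kb from HoxB and 400 kb to the right of HoxC, and with 800 kb -160 kb and 840 kb from HoxB, with none to the right of HoxC. When each experiment was left out they ranged from -2200 to 0 kb and from 640 to 1040 kb for HoxB, and from -400 to -200 kb and at 200 kb for HoxC, with none to the right of HoxC in 1 case (the experiment named for propidium iodide and freezing). The causes of these changes were not tested. No paired analysis was possible because the labels give libraries no replicate numbers. Calls of 0 and 1 without read counts limit all values, and windows of 40 kb hold several Hox genes each.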
